A study of Mus musculus with 4 samples.

Results

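Among 4602 kept cells of an embryonic day 17.5 (E17.5) mouse small intestine library, 104 carried much collagen RNA and little smooth muscle RNA; they are called the collagen-gated cells. They were chosen by their own RNA: at least 500 detected genes, at most 20% mitochondrial UMIs, Col1a1, Col1a2 and Col3a1 together at 0.5% or more of the cell's UMIs, and the contractile genes Acta2, Tagln, Myh11 and Actg2 together under 1%. A UMI (unique molecular identifier) stands for 1 captured RNA molecule. The 104 cells are 2.26% of the kept E17.5 cells (exact 95% interval 1.85 to 2.73%, counting error only) and stand among 15800 kept cells of the whole series. Levels of the genes in that rule are given as a description, and so are all contrasts between these cells and others, since the cells were picked from the same counts. Most lay in clusters led by fibroblast genes, but 11 carried mesothelial genes and 16 lay in a cluster shared with contractile cells, so the cells are named here by their rule.

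The study measured RNA in single cells of mice carrying Bmi1-GFP, a reporter in which green fluorescent protein is made from the Bmi1 locus; the design text states that Bmi1-expressing epithelial cells were isolated by fluorescence-activated sorting. The 4 groups, E12.5, E17.5, adult and irradiated adult, have 1 library each, made with the 10x Chromium 3' version 3 chemistry, and all carry the reporter. The E17.5 tissue was dissected small intestine; the number of embryos and the sort gates are not in the labels. Because each group is a single library, groups were not tested against each other, and every interval below covers counting error only.

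Fibroblasts of the gut wall make the fibrillar collagens, elastic fibres and proteoglycans of the connective tissue under the epithelium. During development the epithelium sends hedgehog ligands to this mesenchyme, and subsets of fibroblasts answer with BMP, Wnt and R-spondin proteins that position stem cells and villi. Mesothelium, the sheet that covers the outside of the gut, also makes matrix and gives rise to some of the fibroblasts and smooth muscle of the wall.

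The library labelled as epithelial held these cells at E17.5, while 0 cells passed the same rule in the other libraries. E12.5 gave 0 of 4226 kept cells, adult tissue 0 of 3788 and irradiated tissue 0 of 3184; 3 cells would be 0.071%, 0.0792% and 0.0942%. The highest collagen share of any kept cell was 0.477% at E12.5, 0.049% for adult and 0.0887% for irradiated tissue, against 2.52% at E17.5. Whole libraries held 38648331 to 90674425 UMIs, any pair of libraries shared 6 to 12 barcodes, and 1 of the 104 cells was among the 193 E17.5 cells with the highest doublet scores.

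The gate has soft edges. The collagen shares just inside the limit were 0.51%, 0.515% and 0.528%, and those just outside were 0.494%, 0.483% and 0.482%; 39 cells lay between 0.25% and 0.5%. On the contractile side the highest members reached 0.971% and 0.944%, and the next cells past the collagen limit held 1.13% and 1.30%. A further 105 kept cells were past the contractile limit, called contractile cells below, and 10 of these also passed the collagen limit.

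**Figure D1:**
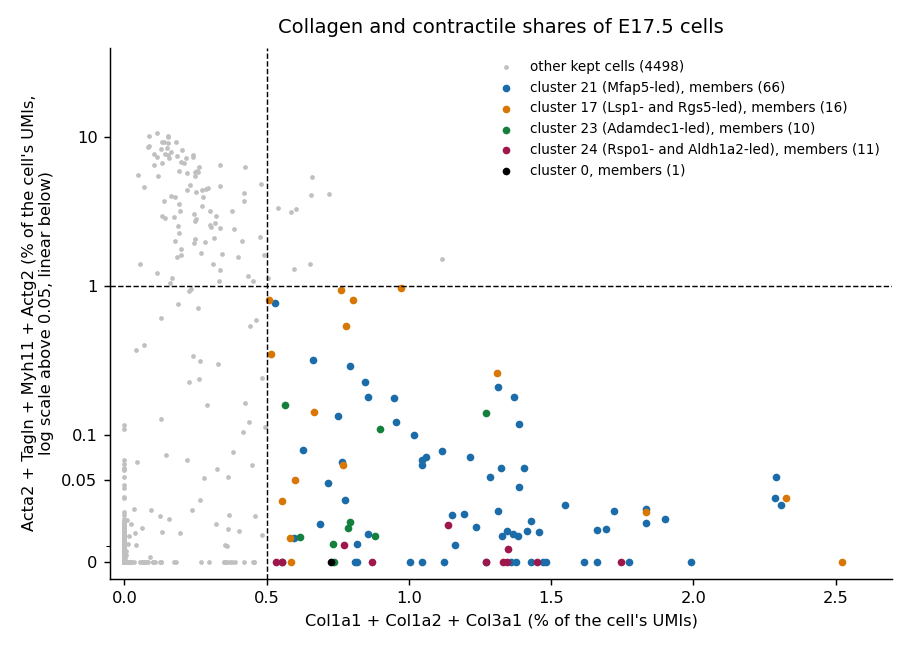
Each point is 1 kept E17.5 cell, placed by the share of its UMIs in the 3 gate collagens (x axis, %) and in the 4 contractile genes (y axis, %, log scale above 0.05); dashed lines are the limits and colours are the whole-library clusters of the members. The 104 members spread from 0.51 to 2.52% collagen, and the cells of cluster 17 (orange) include those nearest to the contractile limit.

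The collagen-gated cells were shallower than their neighbours. Their 682949 UMIs give a median of 6154.5 UMIs and 2396.5 genes per cell, against 11829 UMIs and 3172 genes in the other 4498 kept cells and 7128 UMIs in the contractile cells. Levels are given as CPM (counts per 1000000 UMIs, summed over the cells of a set), so that 1 UMI in the collagen-gated cells is 1.46 CPM. Ratios are log2((CPM + 1)/(CPM + 1)), and a gene is called higher or lower where this reaches 4-fold. To compare shares of cells, cells were cut down by random draw to an equal 2000 UMIs (called thinned below), a depth that 97 of the 104 reached.

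Col1a1 and Col1a2, which make type I collagen, stood at 4391 CPM (4235 to 4551) and 2449.7 CPM (2334 to 2570), and Col3a1 (type III collagen) at 4293 CPM (4139 to 4451). In single cells Col1a1 ranged from 2.26 to 132 UMIs per 10000, with a median of 40.4, and Col3a1 from 10.8 to 142 with a median of 42.7. The other 4498 cells held 21.6 CPM of Col1a1, and 60.4% of those UMIs were in the contractile cells. Dcn, the small proteoglycan decorin that binds collagen fibrils, lies outside the rule; it was at 3318 CPM (3183 to 3457) against 7.31 CPM in the other cells, and 100 of 104 cells had a UMI. Its level ran from 0 to 97.9 UMIs per 10000, with a median of 30.8. Pdgfra, the receptor by which fibroblasts read epithelial PDGF, was sparse, with 61 UMIs in 34 cells, or 89.3 CPM (68.3 to 114.7) against 0.525 CPM. At equal depth 14.4% of the collagen-gated cells (8.12 to 23%) had a Pdgfra UMI, against 0.971% of contractile cells and 0 of 4151 cells of the 20 clusters low in both gene sets; unthinned shares were 32.7%, 3.81% and 0.0693%, at median depths of 6154.5, 7128 and 12351 UMIs.

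Markers of other cell types were also counted. Of 8 epithelial markers, 7 were at least 4-fold lower, as were 10.2% of all measured genes, with Epcam at 49.8 CPM against 1817 CPM; their sum was 464 CPM against 5878 CPM. Endothelial Pecam1, Cdh5 and Cldn5, immune Ptprc, Csf1r, Cd52 and Laptm5, glial Sox10 and Foxd3, and neuronal Elavl4, Ret and Tubb3 were at 0 UMIs. Over both sets, 3 of 6 endothelial, 4 of 6 immune and 2 of 5 glial markers had under 50 UMIs. This depth cannot show that such genes were absent. With 3 UMIs in place of 0, the neuronal log2 list median went from -2.36 to 0.10 and the immune one from -0.79 to 0.63. Another neuronal marker, Stmn2, had 182 UMIs, at 266.5 CPM against 13.3 CPM in other cells. With 4 of 5 neuronal markers at 0, it made up the whole sum of that list, against 39.2 CPM for the list in other cells. Summed over whole lists, endothelial markers stood at 41.0 CPM against 28.7 CPM, glial markers at 13.2 against 13.8 CPM and immune markers at 5.86 against 6.73 CPM, with 3 of 6, 2 of 5 and 4 of 6 markers at 0. The 6 pericyte markers were all at least 4-fold higher than in other cells (7.98% of all measured genes were) and summed to 310.4 CPM, against 309.3 CPM in the contractile cells. Most UMIs of some hormone and acinar genes lay in 1 cell: 1 member held 2503 of the 2551 Sct UMIs and 969 of the 1009 Cck UMIs, and another 557 of the 762 Ctrb1 UMIs. Without the highest cell, Sct stood at 72.1 CPM, Cck at 60.1 CPM and Ctrb1 at 303.9 CPM. Ctrb1 still had 205 UMIs there. Over all members 70 of 104 cells (67.3%) had a Ctrb1 UMI, against 59.0% of contractile cells and 76.7% of cells in the 20 low clusters. These shares are unthinned, at median depths of 6154.5, 7128 and 12351 UMIs.

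Across the library 13682 genes had 50 or more UMIs. Of these, 1092 (7.98%) were at least 4-fold higher in the collagen-gated cells and 1390 (10.2%) at least 4-fold lower, and the median of all genes was -0.01 on the log2 scale. TMM scaling moved that median by about -0.31. With 3 UMIs in place of 0 and no CPM added, the median was 0.21. Without the 3 members holding 0.5% or more of enteroendocrine or acinar markers, 1109 genes were higher and 1493 lower. The 12 highest genes under the naming rule were Dcn, Col1a2, Mfap5, Lum, Col3a1, Col1a1, Col14a1, Postn, Itm2a, Cd34, Zeb2 and Ebf1. Mfap5, a microfibril protein, stood at 329.5 CPM against 0.38 CPM, and Cd34, a surface sialomucin of fibroblast and endothelial progenitors, at 177.2 CPM against 0.289 CPM. Lum (lumican, a collagen-binding proteoglycan) was at 1103 CPM against 4.55 CPM, Postn (periostin, a matricellular protein) at 370.5 against 1.36 CPM, and Itm2a, a membrane protein of developing cartilage and muscle, at 2743 against 18.4 CPM.

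At the other end were products of the epithelium and of the islet cells in the same library. Ins2, which encodes insulin and is nearly identical to Ins1, stood at 10.2 CPM in the collagen-gated cells against 3346 CPM in other cells, 326-fold lower. Apoa1, the apolipoprotein of enterocytes, was at 4.39 against 974 CPM (3 UMIs; counting interval of the log2 ratio -10.07 to -6.25), and the hormone genes Pyy and Iapp were 118-fold and 113-fold lower. Otc, of the urea cycle, and Slc7a9, an amino acid carrier, had 0 UMIs. They were 34.8-fold and 19.6-fold lower with 3 UMIs in place of 0. The counting intervals of their log2 ratios reached up to -4.82 and -4.00. Prap1, at 7.32 against 672 CPM, was also among the lowest.

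**Figure D2:**
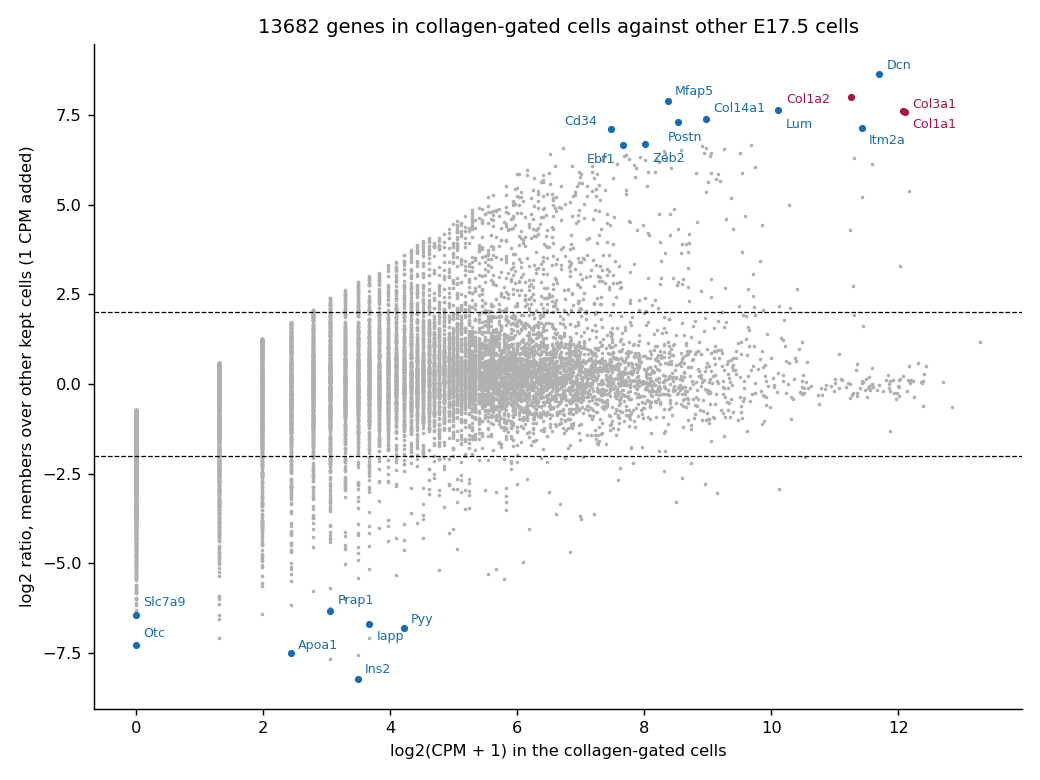
Each point is 1 of 13682 genes, with its level in the 104 collagen-gated cells (x axis, log2 of CPM + 1) and its log2 ratio to the other kept cells (y axis); dashed lines mark 4-fold, and gate collagens are red. Dcn is the highest at 8.64, and Ins2 the lowest at -8.22.

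To show the promoters of the gate collagens that the table of promoters holds, the 250 bases before the RefSeq start of Col3a1 (GRCm38.p6, chr1:45311288-45311537, + strand) and Col1a2 (chr6:4505368-4505617, + strand) are printed 5' to 3', with matches of 3 motifs in capitals.
Col3a1: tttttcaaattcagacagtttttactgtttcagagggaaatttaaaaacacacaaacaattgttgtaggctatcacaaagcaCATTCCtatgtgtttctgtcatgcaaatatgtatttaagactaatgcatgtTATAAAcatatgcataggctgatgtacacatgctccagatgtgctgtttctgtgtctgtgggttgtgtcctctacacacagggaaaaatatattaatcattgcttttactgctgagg
Col1a2: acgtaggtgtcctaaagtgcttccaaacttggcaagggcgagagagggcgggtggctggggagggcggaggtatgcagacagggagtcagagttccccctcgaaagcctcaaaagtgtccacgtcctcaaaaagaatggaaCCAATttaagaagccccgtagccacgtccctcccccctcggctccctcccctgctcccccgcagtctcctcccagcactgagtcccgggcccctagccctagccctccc
Searched on both strands were CCAAT, the box bound by NF-Y; TATAAA, the TATA box; and CATTCC, the TEAD site. In Col1a2 the capitals mark CCAAT, 109 to 105 bases before the start. In Col3a1 they mark CATTCC, 168 to 163 bases before it, and TATAAA, 117 to 112 bases before it. Of the 53 matrix genes (the gate collagens and the lists of fibrillar collagens, other collagens, elastic fibres and proteoglycans) that were at least 4-fold higher, 37 had a promoter in the table; 40.5% of these held CCAAT, 13.5% TATAAA and 8.11% CATTCC. Among the 778 of the 1092 higher genes with a promoter there the shares were 32.6%, 9.13% and 11.8%. Among the 10524 tested genes with one they were 36.5%, 6.67% and 10.6%. Over all 27025 promoters of the same length the shares were 34.5%, 13% and 12.6%. A match describes letters and not a bound site.

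The matrix genes outside the rule were high together. Of 6 measured fibrillar collagens, 5 were at least 4-fold higher, with a list median of 5.13 on the log2 scale against -0.01 over all genes. Col5a2 and Col5a1, whose type V chains start and size the type I fibrils, stood at 492 CPM against 4.63 CPM and at 317.7 CPM against 2.53 CPM. The exception was Col11a2, at 1 UMI. Of 16 other collagens 13 were higher (median 4.29), led by Col6a1 at 725 CPM against 7.36 CPM and Col14a1, a fibril-associated collagen, at 501 CPM against 1.98 CPM. Of 12 basement membrane genes 6 were higher and 0 lower (median 2.51), with Nid1 (nidogen) at 209.4 CPM and the laminin chain Lamb1 at 162.5 CPM.

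Enzymes that fold, modify and crosslink collagen were next. Of 21 measured, 16 were at least 4-fold higher and 0 lower (median 3.66). Serpinh1, the collagen chaperone HSP47, stood at 1243 CPM against 38.0 CPM, Pcolce, which helps to cut the procollagen end, at 265 CPM against 3.38 CPM, and Lox, the lysyl oxidase that crosslinks collagen and elastin, at 162.5 CPM against 1.02 CPM. The general secretory enzymes of the list differed little: P4hb stood at 269.4 CPM against 311.5 CPM and Ppib at 1246 CPM against 829 CPM. Of 11 matrix proteases and inhibitors 10 were higher, Timp2 at 300.2 CPM and Mmp2, a gelatinase, at 82.0 CPM against 0.669 CPM.

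Elastic fibre and microfibril genes were higher in 15 of 15 measured (median 5.18). Elastin itself, Eln, stood at 215.2 CPM against 1.78 CPM, and Mfap2 and Mfap4 at 857 CPM against 11.9 CPM and 819 CPM against 7.14 CPM. Fbn1 (fibrillin 1) and Fbn2, its fetal partner, were at 188.9 and 150.8 CPM. Proteoglycans and matricellular proteins were higher in 17 of 18 (median 4.79); Sparc, the collagen-binding osteonectin, was at 2530.2 CPM, Gpc3 at 795 CPM and Sparcl1 at 559 CPM. The remaining gene, Ctgf, a target of mechanical signalling, was at 11.7 CPM, and at 91.3 CPM in the contractile cells.

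**Figure D3:**
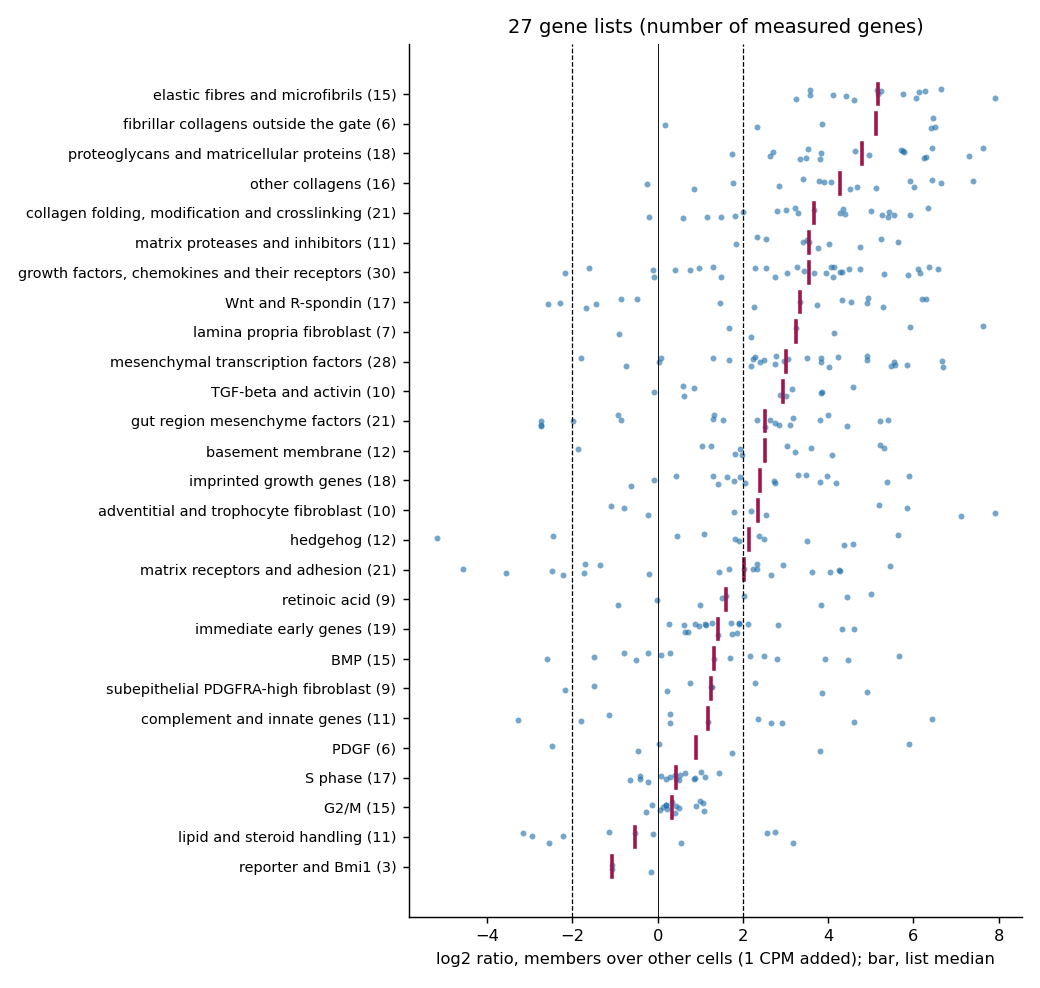
Each point is 1 measured gene of 1 of 27 gene lists, by its log2 ratio of collagen-gated to other kept cells (x axis, 1 CPM added); red bars are list medians and dashed lines mark 4-fold. The collagen, collagen processing, elastic fibre and proteoglycan lists have medians from 3.66 to 5.18, and the S phase and G2/M lists sit at 0.42 and 0.33.

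Signals that fibroblasts send were high in part of each list. Of 30 measured growth factors, chemokines and receptors 21 were at least 4-fold higher and 1 lower (median 3.55). Over all measured genes the shares were 7.98% and 10.2%. Ptn, the heparin-binding growth factor pleiotrophin, led at 3084 CPM against 42.5 CPM, and its relative Mdk stood at 908 CPM against 83.2 CPM. Igfbp4, which binds insulin-like growth factors, was at 674 CPM against 32.8 CPM. Cxcl12, the chemokine that holds blood cells and vessels, was at 530.1 CPM (477 to 588) against 8.03 CPM, with a UMI in 81 cells, and Igf1 at 414 CPM against 26.0 CPM. The lower gene was Nt5e, at 1 UMI. Fgf7 and Fgf10, fibroblast ligands for epithelium, had 0 UMIs in the collagen-gated cells, where 3 UMIs would be 4.39 CPM, and stood at 0.0656 and 0.0393 CPM in other cells.

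Of 12 measured hedgehog genes 6 were higher and 2 lower (median 2.13), as were 7.98% and 10.2% of all measured genes. The ligand Ihh had 0 UMIs in the collagen-gated cells against 35.2 CPM in other cells, 8.01-fold lower with 3 UMIs in place of 0. Shh had 0 against 4.43 CPM, which this depth cannot tell apart. The co-receptors Gas1, Cdon and Boc stood at 511, 70.3 and 39.5 CPM against 9.3, 5.26 and 0.695 CPM, and the effector Gli3 at 35.1 CPM against 0.735 CPM. Ptch1, receptor and target, was at 61.5 against 16.7 CPM.

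Wnt and BMP genes were higher in part of each list. Over all measured genes 7.98% were higher and 10.2% lower, so the few lower genes are not read as a result. Of 17 Wnt and R-spondin genes 10 were higher and 2 lower (median 3.33): the secreted inhibitors Sfrp2 and Sfrp1 stood at 323.6 and 300.2 CPM, Wnt4 at 102.5 CPM, Wnt5a at 95.2 CPM, and Rspo1 and Rspo3, which amplify Wnt signals at crypts, at 92.2 and 58.6 CPM. Most of the Rspo1 UMIs lay in the members with mesothelial genes, described below. The epithelial receptor Lgr4 was lower, at 11.7 against 60.8 CPM. Of 15 BMP genes 6 were higher and 1 lower, with the target Id3 at 719 CPM against 158.2 CPM, Fstl1 at 581 CPM and Bmp4 at 30.7 CPM against 0.446 CPM. The BMP antagonist Grem1 had 1 UMI, at 1.46 CPM, against 152.2 CPM in the contractile cells, a ratio of 104-fold there (18.3 to 4138). With 3 UMIs in place of 0, the medians of the hedgehog, BMP and Wnt lists were 2.35, 1.75 and 3.46.

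Transcription factors of mesenchyme were higher in 22 of 28 measured, and 0 were lower (median 3.01). Meis2, a cofactor of Hox proteins, stood at 278.2 CPM, Klf4 at 303.1 CPM, Tcf21 at 263.6 CPM against 4.70 CPM, and Zeb2 at 256.2 CPM against 1.5 CPM. Ebf1 was at 202.1 CPM against 0.984 CPM. Gata6 was at 98.1 CPM against 96.3 CPM. Of 21 measured factors that mark place along the gut 12 were higher and 3 lower (median 2.52). Over all measured genes 7.98% were higher and 10.2% lower, so the 3 lower factors are not read as a result. Nkx2-3, of midgut and hindgut mesenchyme, was at 165.5 CPM against 2.94 CPM, while Barx1, of the stomach, and Tlx1, of the spleen, had 0 UMIs. Of 23 listed Hox genes of paralogue groups 2 to 9, 19 had a UMI (341 UMIs in all), led by Hoxc8 at 96.6 CPM; of 8 genes of groups 10 to 13, 2 had a UMI (3 UMIs).

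Of 18 measured imprinted growth genes 10 were higher and 0 lower (median 2.39), against 7.98% and 10.2% of all measured genes. Dlk1, a Notch-like growth regulator of fetal stroma, stood at 4601 CPM (4441 to 4764) against 109.9 CPM, and 103 of 104 cells had a UMI. Cdkn1c, a brake on the cell cycle, was at 4144 CPM against 420.1 CPM, Meg3 at 2489 CPM against 372.5 CPM and Mest at 742 CPM against 11.5 CPM. H19 was at 730.7 CPM against 1129 CPM, and Igf2 stood at 35.1 CPM against 13.7 CPM.

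Immediate early genes, which dissociation can raise, were measured beside these lists. Of 19, 4 were at least 4-fold higher, as were 7.98% of all measured genes. The 4 were Klf2 (621 CPM against 24.7 CPM), Socs3 (367.5 CPM against 17.5 CPM), Nr4a1 (180.1 CPM against 24.7 CPM) and Junb (1248 CPM against 286.4 CPM). The list median was 1.41, Fos stood at 2517 CPM against 667 CPM, and the part of this response in other genes was not tested.

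Clustering all 4602 kept cells into 25 clusters put the 104 cells in 5 of them. Cluster 21 held 66, cluster 17 held 16, cluster 24 held 11, cluster 23 held 10 and cluster 0 held 1, a cell of 963 UMIs in a cluster led by the crypt genes Ascl2, Olfm4 and Lgr5. Clusters 21 and 23 have the fixed fibroblast markers Dcn, Col1a1, Col1a2 and Col3a1 among their 10 leading genes and are called fibroblast-like. Of these only Dcn lies outside the rule, so the name rests largely on genes that chose the cells. Pdgfra, the other fixed marker outside the rule, is among the 10 of neither. Cluster 24 is mesothelial-like, with Msln and Upk3b among its 10 leading genes. Cluster 17, with 59 contractile cells among its 106, has 1 smooth muscle and 1 pericyte marker there and stays unnamed. Clusters 21, 23 and 24 hold 73, 23 and 22 cells in all, with median collagen shares of 1.21%, 0.454% and 0.508%. The values below cover only the members of each cluster, and the clusters were built from the same genes.

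Cluster 21 was marked by Mfap5, Cd34, Ebf1 and Postn. Its 66 members held Mfap5 at 481 CPM (48 cells with a UMI), Cd34 at 249.6 CPM (46 cells), Ebf1 at 303.1 CPM (50 cells) and Postn at 533 CPM (58 cells). In the cluster 17 members Mfap5, Cd34, Ebf1 and Postn stood at 42.6, 21.3, 0 and 106.4 CPM, and in the 10 members of cluster 23 at 0, 0, 16.3 and 16.3 CPM. Over all 104 cells, Mfap5 and Cd34 were found together in 39 cells and separately in 12 and 12. Of the secreted factors, Wnt4 was at 151.6 CPM in 28 cells, Igf1 at 548 CPM and Cxcl1, a neutrophil chemokine, at 314.3 CPM in 30 cells. Dlk1 reached 5784 CPM in cluster 21 and 245.1 CPM in cluster 23.

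Adamdec1, a protease of lamina propria fibroblasts, stood at 3039 CPM with a UMI in 10 of 10 members, against 106.4 CPM, all in 1 cell, in cluster 17 and 0 UMIs in clusters 21 and 24. Its members also held Pdgfra at 261.4 CPM (16 UMIs in 6 cells), Nkx2-3 at 866 CPM, Tcf21 at 817 CPM, Foxf1 at 457.5 CPM and Ptch1 at 473.8 CPM. In cluster 21 Pdgfra, Nkx2-3, Tcf21, Foxf1 and Ptch1 stood at 73.5, 104.8, 151.6, 11.1 and 8.92 CPM. Foxf1 and Ptch1 are targets of hedgehog in gut mesenchyme; Bmp4, another, was at 196.1 CPM against 2.23 CPM. Foxl1, the telocyte factor, had 4 UMIs in 2 members of cluster 23, and 0 UMIs in the 66 of cluster 21. Of the 11 cells with an Adamdec1 UMI, 0 had Mfap5.

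Cluster 24 held mesothelial-like cells, of which only those inside the rule are described. In its 11 members Upk3b, an uroplakin of mesothelium, was at 2048 CPM with a UMI in 11 of 11 cells, Msln (mesothelin) at 704 CPM in 10 cells and Lrrn4 at 333 CPM in 11 cells, and Upk3b had 0 UMIs in the other 93. Wt1, the mesothelial factor, was found in both: it stood at 345.6 CPM there and at 115.9 CPM in cluster 21, where 31 of 66 cells had a UMI. These 11 cells also made Col1a1 at 4966 CPM and Dcn at 2624 CPM, while Pdgfra had 0 UMIs. The retinoic acid enzyme Aldh1a2 stood at 717 CPM, against 0 UMIs in cluster 21, Rspo1 at 589 CPM against 37.9 CPM and Igfbp6 at 794 CPM against 102.5 CPM. The median epithelial marker share was 0.259% of UMIs, against 0.00871% in cluster 21, with Krt19, a keratin of both tissues, at 1715 CPM; all 9 collagen-gated cells at 0.2% or more lay in this cluster.

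The 16 members in cluster 17 stood nearest to the contractile cells. They held Acta2 at 2565 CPM (130 of its 241 UMIs in 1 cell), Myh11 at 149 CPM, Rgs5, a pericyte gene, at 276.7 CPM and Aspn, asporin of fibrous matrix, at 372.5 CPM. Cluster 21 members held Acta2, Myh11, Rgs5 and Aspn at 349.9, 2.23, 11.1 and 107.0 CPM. Tcf21 was at 649 CPM with a UMI in 14 of 16.

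**Figure D4:**
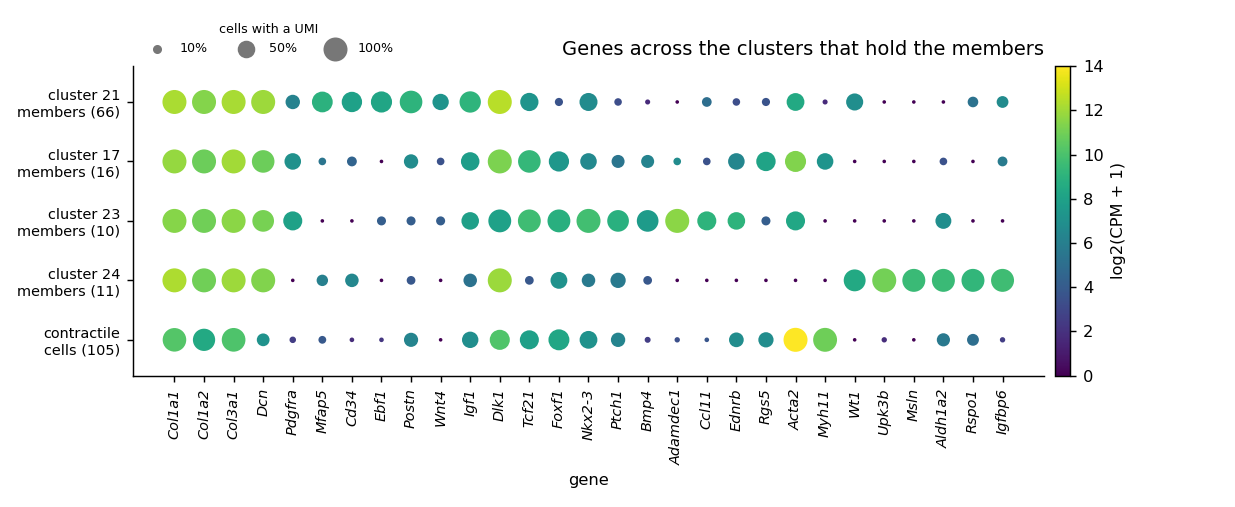
Rows are the members in 4 whole-library clusters and the 105 contractile cells, columns are genes; dot area is the share of cells with a UMI (%, unthinned) and colour is log2(CPM + 1). Type I and III collagens are present in every row, Mfap5, Cd34 and Ebf1 mainly in cluster 21, Adamdec1 in cluster 23, and Upk3b and Msln in cluster 24.

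Clustering the 104 cells alone, without the gate genes, gave 4 groups. Group 3 was the same 11 mesothelial-like cells. Group 2, of 16 cells, drew 10 from cluster 17 and 6 from cluster 23, with Adamdec1, Ifitm3, Mfap4, Pdia6 and Myl6 leading. Group 1, of 26 cells, was led by the division genes Top2a, Prc1, Birc5, Pclaf and Smc2, and came from clusters 21 (19 cells), 23 (4) and 17 (3). Group 0, of 51 cells, lay in cluster 21 for 47 of them. Its leading genes Sct, Cck, Ctrb1, Pnliprp1 and Clps owe 99.2%, 98.1%, 79.8%, 81.2% and 57.7% of their UMIs to 1 cell each.

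Division was measured with 15 G2/M genes at equal depth. A UMI count of 3 or more over these genes was found in 26 of 97 thinned cells, 26.8% (18.3 to 36.8%), against 29.9% (28.6 to 31.3%) of other cells and 17.5% (10.7 to 26.2%) of contractile cells; unthinned shares were 42.3%, 45.9% and 27.6%. The G2/M intervals of the collagen-gated and other cells overlap. For 17 S phase genes the shares were 38.1% (28.5 to 48.6%), 21.4% (20.2 to 22.7%) and 12.6% (6.89 to 20.6%). There the intervals of the collagen-gated and other cells do not overlap, and they cover counting error only. By cluster, 16 of 64, 3 of 13, 6 of 10 and 1 of 10 thinned members of clusters 21, 17, 23 and 24 passed for G2/M.

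**Figure D5:**
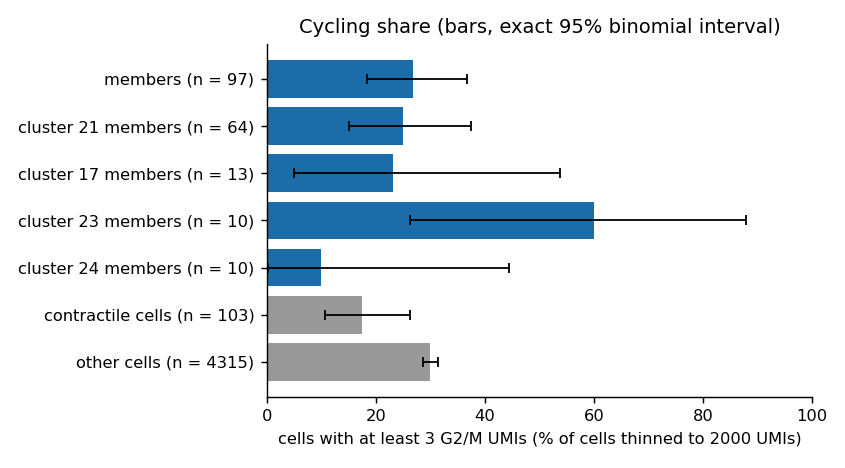
Bars give the share of cells with at least 3 UMIs over 15 G2/M genes after thinning to 2000 UMIs (x axis, %), with exact 95% binomial intervals that cover counting error only. The members stand at 26.8%, and the 10 members of cluster 23 at 60.0% with an interval of 26.2 to 87.8%.

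In the comparison with the contractile cells, 4184 genes had 50 or more UMIs. Of these, 129 (3.08%) were at least 4-fold higher in the collagen-gated cells and 121 (2.89%) lower, with a median of 0.14 over all genes. Cells of the members' own clusters that failed the rule were not compared on their own. The highest by the naming rule were Cxcl1, Sct, Cck, Stmn2 and Cd34. Cxcl1 stood at 232.8 CPM against 1.22 CPM from 1 UMI, Stmn2, a microtubule regulator best known in neurons, at 266.5 CPM against 3.65 CPM from 3 UMIs, and Cd34 at 177.2 CPM against 2.44 CPM from 2 UMIs. The ratios were 191-fold (33.8 to 7599) for Cxcl1, 72.9-fold (24.6 to 357) for Stmn2 and 72.7-fold (19.7 to 608) for Cd34. The Sct and Cck UMIs lay largely in the single cell described above. Stmn2 was spread over 30 members of cluster 21, while Elavl4, Ret and Tubb3 were at 0.

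The lowest were Pcp4, Tnnt2, Ckm, Actg2 and Sh3bgr. Of these, Tnnt2, Ckm and Actg2 are genes of muscle contraction and its energy supply, and Pcp4 is a calmodulin regulator. Pcp4, Tnnt2 and Ckm had 0 UMIs in the collagen-gated cells and 423, 412 and 221.6 CPM in the contractile cells. With 3 UMIs in place of 0, they were 96.2-fold, 93.7-fold and 50.5-fold higher in the contractile cells. The counting intervals of these ratios reached down to 77.8-fold, 75.8-fold and 40.6-fold. Actg2, part of the rule, was at 58.6 CPM against 12324 CPM. Sh3bgr stood at 2.93 CPM, from 2 UMIs, against 617 CPM, a ratio of 211-fold (58.1 to 1746) in favour of the contractile cells.

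For the matrix lists the ratios to the contractile cells were smaller. Elastic fibre genes had a median of 1.14 against the contractile cells, with 3 of 14 at least 4-fold higher and 0 lower, and collagen processing genes a median of 1.46, with 1 of 17 higher. The gate collagens themselves were 3.62-fold (Col1a1), 6.96-fold (Col1a2) and 3.95-fold (Col3a1) higher, and Dcn 24.1-fold. Lum and Mfap5 were 8.71-fold and 24.6-fold higher, whereas Vim, vimentin of the mesenchymal cytoskeleton, stood at 2425 and 2427 CPM. Fibulin 2 (Fbln2) was at 175.7 CPM against 2.44 CPM. Wnt4, Wt1 and Cxcl13 had 0 UMIs in the contractile cells. Of the 71 Cxcl13 UMIs of the collagen-gated cells, 39 lay in 3 cells of group 1. With 3 UMIs in place of 0, Wnt4, Wt1 and Cxcl13 were 28.1-fold, 31.7-fold and 28.5-fold higher in the collagen-gated cells. Their counting intervals reached down to 22.2-fold, 25.2-fold and 22.5-fold. Foxf1 ran the other way, 3.51-fold higher in the contractile cells, at 308.1 against 87.9 CPM, and so did Rspo3, at 154.6 against 58.6 CPM.

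The sort was for Bmi1-expressing cells, and Bmi1 and the reporter were sparse in the RNA. The gene Bmi1 had 3 UMIs in 3 of 104 cells, or 4.39 CPM (0.906 to 12.8), against 10.3 CPM in the other cells and 12.2 CPM in the contractile cells. At equal depth, 1.03% of collagen-gated cells (0.0261 to 5.61%) and 2.94% of the cells in the 20 low clusters had a Bmi1 UMI; unthinned shares were 2.88% and 15.5%. The eGFP feature had 0 UMIs in the collagen-gated cells, where 3 would be 4.39 CPM, and 1.11 CPM in other cells, so a difference was not detectable at this depth. Commd3, the gene next to Bmi1, stood at 161.1 CPM against 178.4 CPM.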

How the data were processed

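Single-cell RNA was measured in 4 libraries, 1 per group. The authors deposited whole-number UMI counts per gene and barcode; Cell Ranger 3.1.0 and mm10 are named per the submitters' processing notes. The members and gene lists were chosen with earlier results of these data known. The filter kept cells of 500 genes or more with mitochondrial UMIs at 20% or less. Counts were summed over cells, scaled to CPM and compared as log2((CPM + 1)/(CPM + 1)) for genes with at least 50 UMIs over both sets, with 4-fold as the limit. CPM intervals are exact Poisson and shares exact Clopper-Pearson, at 95%, and cover counting error only. Clusters were made with scanpy 1.11.5 (leidenalg 0.10.2), and doublets were scored with Scrublet and kept. Thinning used 2000 UMIs, and cycling at least 3 G2/M UMIs. The 20 clusters low in both gene sets are those with under 5% of cells past either limit. Named genes are the gate genes and fixed markers, the 12 highest and 8 lowest against other cells, and the 5 highest and 5 lowest against contractile cells, with at least 100 UMIs in the higher set and a UMI in 25% of its cells, leaving out mitochondrial, ribosomal, haemoglobin, immunoglobulin and predicted genes and a short set of sex-specific genes. From each list, genes past 4-fold and the gene most against the list's direction could be named, and from each group of members the 5 leading genes. Other genes named beside these, such as Ptch1, Fos and Vim, were chosen after their values were seen. Promoters are the first listed start per gene in RefSeq GRCm38.p6. The code was tested on simulated data. Alternatives changed the gate, the filter, the comparison cells, the pseudocount, the UMI minimum, the fold limit, the thinning and the scaling (TMM, edgeR 4.0.16). Some genes that these rules name are not reported here.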

Additional observations from a re-analysis of the deposited data

How the results depend on the processing

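No paired analysis was possible because each group has 1 library. The 1092 higher and 1390 lower genes became 2471 lower with a pseudocount of 0.1 CPM, 473 higher and 362 lower with 10 CPM, 622 higher with at least 200 UMIs, 2591 and 3116 at 2-fold, and 562 and 666 at 8-fold. Of 27 lists, 17 had a median of at least 4-fold, 9 with 10 CPM added and 11 with at least 200 UMIs. The share of kept cells was 3.11% with collagen at 0.25% or more and 1.30% at 1% or more. The cycling share was 37.0% thinned to 4000 UMIs, 42.3% without thinning and 38.1% with at least 2 G2/M UMIs. Changes of sign were listed only for named or list genes at least 4-fold apart in the main comparison. With collagen at least 0.25%, the log2 ratio of Bmp3 changed sign, to 0.43. With collagen at least 1%, P4ha3, Hhip and Nrg1 did so, to -0.81, -0.85 and -1.44. Tnnt2 changed to 0.47 with contractile genes under 2%, and to 2.00 without that limit. Without the mesothelial-like members, and with cluster 21 members alone, the mesothelial list median was -1.96, with Upk3b at -3.59, Msln at -1.90, Lrrn4 at -0.51 and Upk1b at -2.02; both sets were chosen after seeing the data. With cluster 21 alone, Hhip was at -0.78, Nrg1 at -1.39, Aldh1a2 at -1.57 and Adamdec1 at -2.25. The causes of these changes were not tested. Depth limits genes near 3 UMIs, or 4.39 CPM.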
